A study of Mus musculus with 8 samples.

Results

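Neurogranin and the 8 CaM kinase genes Camk2a, Camk2b, Camk2d, Camk2g, Camkk1, Camkk2, Camk1 and Camk4 were followed through a TRAP-Seq experiment on chronic morphine. They were taken by gene symbol from a table of read counts, with 1 row per gene (the transcript with the highest total), and make up 9 of the 18939 genes with a count. TRAP, translating ribosome affinity purification, pulls down ribosomes that carry a green fluorescent tag and sequences the RNA on them. All mice carried the same alleles, OPRM1cre X EGFP-L10a on a C57Bl/6J background, so that Cre made from the gene of the mu opioid receptor (MOR) switched on the tagged ribosomal protein. They were 8 to 12 weeks old at the start. The morphine group drank morphine in 0.2% saccharin for 11 days, at 0.3 mg/ml to begin with and 0.5 mg/ml at the end, and the control group drank 0.2% saccharin alone. Each library pooled gross dissections aimed at the paraventricular nucleus of the thalamus (PVT) of 2 mice of the same sex. There were 4 control libraries (replicates 1 and 2 male, 5 and 6 female) and 4 morphine libraries (replicates 3 and 4 male, 7 and 8 female). The comparisons asked whether the genes differed in tagged cells between chronic morphine and saccharin, and between the sexes.

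Calmodulin is the main calcium sensor of neurons, and the CaM kinases are the protein kinases that calcium-loaded calmodulin switches on. CaMKII, a holoenzyme of alpha, beta, gamma and delta subunits, is abundant at excitatory synapses and can stay active after calcium has fallen again. The upstream kinases CaMKK1 and CaMKK2 phosphorylate CaMKI and CaMKIV, and CaMKIV acts in the nucleus on CREB. Neurogranin, a small postsynaptic protein, binds calmodulin when calcium is low and so sets how much of it is free for the kinases. Camk2a and Nrgn are best known for their high expression in pyramidal neurons of the forebrain.

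Depth was similar in both groups, with 37081348 to 43311793 counts in a control and 31151103 to 47582947 in a morphine library. A member never had fewer than 1526 counts in a library, so counting error was small against the spread between libraries. Values are CPM, counts scaled to library size with TMM factors, and differences are log2 fold changes from edgeR's quasi-likelihood test. A gene is said to be called where its P value, adjusted over all genes, was under 0.05. The labelled sex was at odds with the counts in control replicate 5, labelled female, where Ddx3y, Uty, Kdm5d and Eif2s3y, which lie on the Y chromosome, summed to 49.5 CPM, against 128 to 171 CPM in the males and at most 0.0649 CPM in the other females. Of the 8 markers listed for midline thalamus, Tcf7l2, Calb2, Necab1 and Slc17a6 were abundant in every library, but Drd3 was at 0.287 to 0.718 CPM. Markers of other regions and cell types were also counted and are given with the results; without an input library, RNA of tagged cells and RNA carried over from other cells cannot be told apart. In pooled tissue, fewer cells of a type and less RNA per cell cannot be told apart. No sequencing batch is given.

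Upstream sequence is shown for Nrgn, Camk1 and Camk2d, the members with an unadjusted P value under 0.05 whose entry was found in the promoter table (6 of the 9 members had one). Each line gives the 250 bases before the RefSeq start on GRCm38.p6, 5′ to 3′ on the strand of the gene. Capitals mark the short form of the cAMP response element (CRE), which CREB binds (TGACG or, on the other strand, CGTCA), and the CCAAT box (CCAAT or ATTGG). The Nrgn window is chr9:37552746-37552995 (minus strand), that of Camk1 is chr6:113343923-113344172 (minus strand) and that of Camk2d is chr3:126596701-126596950 (plus strand). The Camk2d window precedes the start that the promoter table gives, which lies inside the annotated span of the gene, downstream of its first base.
Nrgn: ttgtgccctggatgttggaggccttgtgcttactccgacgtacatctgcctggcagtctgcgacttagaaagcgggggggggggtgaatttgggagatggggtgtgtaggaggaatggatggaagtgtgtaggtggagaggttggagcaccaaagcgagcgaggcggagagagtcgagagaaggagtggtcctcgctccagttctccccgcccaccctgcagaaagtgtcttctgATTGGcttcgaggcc
Camk1: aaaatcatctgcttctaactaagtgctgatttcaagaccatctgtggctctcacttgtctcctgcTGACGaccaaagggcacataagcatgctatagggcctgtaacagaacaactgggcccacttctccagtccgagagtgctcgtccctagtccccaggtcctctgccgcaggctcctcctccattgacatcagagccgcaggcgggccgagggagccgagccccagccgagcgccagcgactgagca
Camk2d: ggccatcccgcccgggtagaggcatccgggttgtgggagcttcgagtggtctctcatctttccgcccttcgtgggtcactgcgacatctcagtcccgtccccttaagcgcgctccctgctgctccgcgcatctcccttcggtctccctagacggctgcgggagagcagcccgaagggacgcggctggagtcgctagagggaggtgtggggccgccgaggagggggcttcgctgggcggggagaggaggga
The Nrgn window held 1 CCAAT box and 1 GC box (GGGCGG or CCGCCC), which is not in capitals, and no short CRE. The Camk1 window held 1 short CRE and neither box. The Camk2d window held 3 GC boxes and no capitals, and was richer in G and C (68.4%) than that of Nrgn (58.4%) or Camk1 (58.0%). Among 32851 promoter windows of the same length, 17.8% held a short CRE, 33.8% a CCAAT box, 32.7% a GC box and 1.55% the full element TGACGTCA, which was in none of the 6 members' windows. These matches describe letters in a window and do not show that a factor binds there.

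Of the 9 members, 0 were called by edgeR, where 0.195% of all genes were called (37 of 18939). Before adjustment, P was under 0.05 for 4 of the 9, against 12.1% of all genes. Nrgn and Camk2a were on the higher side (6.79% of all genes were) and Camk2d and Camk1 on the lower side (5.31% of all genes). DESeq2, the tool named in the study's methods, called 1 of the 9, Nrgn (2.65% of all genes). limma-voom called 0 of the 9 (0.121% of all genes), edgeR with sex in the model called Nrgn (0.581%), and DESeq2 with sex in the model called Nrgn (2.29%). Whether Nrgn is called thus depends on the tool and the model, while the value of its difference hardly moved among these fits (1.46 to 1.49). The median log2 fold change was 0.13 over the 9 members and 0.0088 over all genes.

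**Figure D1:**
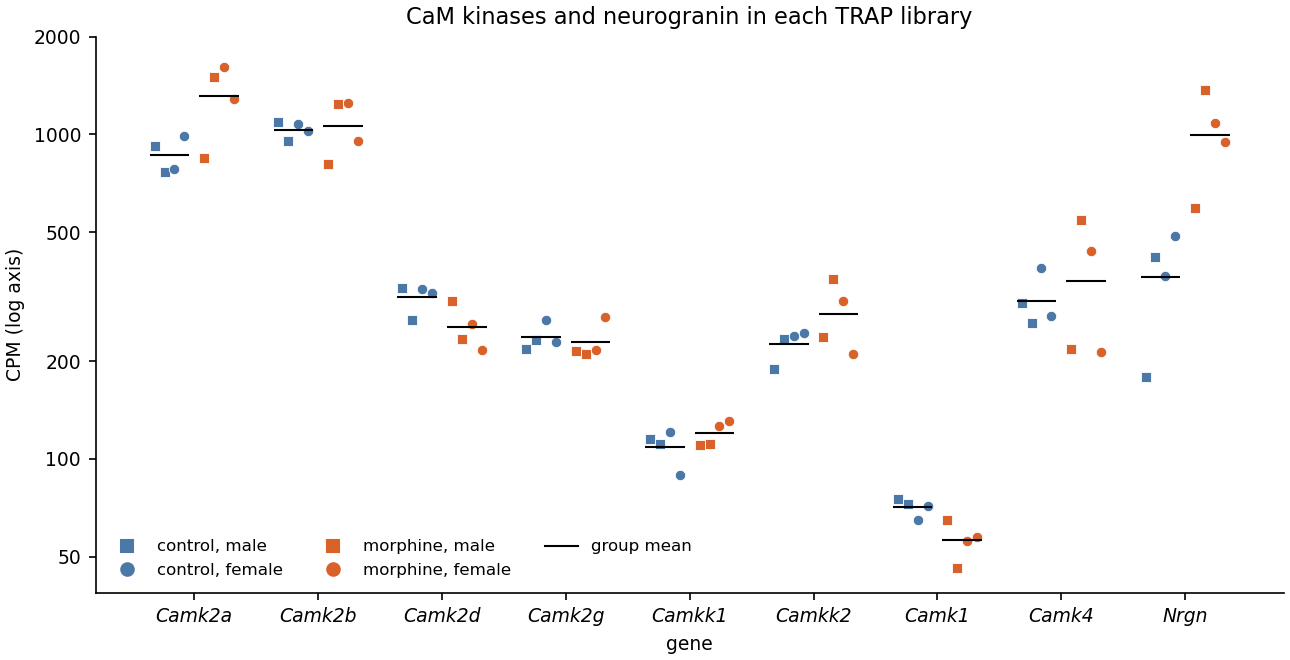
CPM (log axis) of the 9 genes in each of the 8 libraries; blue is control, orange morphine, squares male, circles female, and the line is the group mean. The 4 Nrgn values of the morphine group (594 to 1369 CPM) lie above the 4 of the control group (179 to 487 CPM); in the other 8 genes the groups overlap.

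Nrgn (chromosome 9, 37544493 to 37552745, minus strand of GRCm38.p6) encodes neurogranin. It stood at 179, 418, 367 and 487 CPM in control replicates 1, 2, 5 and 6 and at 594, 1369, 1086 and 946 CPM in morphine replicates 3, 4, 7 and 8. Each morphine library exceeded every control library, as it did for 3.34% of all genes, and the lowest control library (replicate 1) and the lowest morphine library (replicate 3) were both male. The means were 363 ± 132 CPM (SD, n = 4) and 999 ± 322 CPM (SD, n = 4), which is a fold of 2.75 (95% interval 1.75 to 4.34). The log2 fold change was 1.46 (SE 0.30), with an edgeR P value of 0.000447 and an adjusted P value of 0.0817. DESeq2 gave 1.47 with an adjusted P value of 0.000134. In the exact two-sided permutation test over the 70 arrangements of the libraries P was 0.0286, the smallest value that 4 against 4 allows, and this P is not adjusted for the 9 members tested. Leaving out 1 library at a time, the log2 fold change ran from 1.23 without control replicate 1 to 1.64 without morphine replicate 3, with adjusted P values of 0.0508 to 0.245.

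Nrgn is known from pyramidal neurons, and so the markers of such cells are given beside it. All 12 markers listed for telencephalic pyramidal neurons had a log2 fold change above 0. edgeR called 0 of the 12, although P was under 0.05 before adjustment for 6, and DESeq2 called 3 (Neurod6, Neurod2 and Slc17a7). Their summed level was 388 to 760 CPM in the control libraries and 536 to 1139 CPM in the morphine libraries, and none of them was at 0 counts in a library. Neurod6, a transcription factor of these neurons, was at 1.51, 3.17, 2.08 and 13.7 CPM in control replicates 1, 2, 5 and 6 and at 30.6, 53.0, 48.9 and 70.8 CPM in morphine replicates 3, 4, 7 and 8. As a score, the mean log2 CPM of the 12, the list overlapped between the groups, since control replicate 6 (4.64) was above morphine replicate 3 (4.10). These are also the highest control and the lowest morphine library for Nrgn (487 and 594 CPM). When this score was added to the edgeR model, Nrgn differed by 0.58 on the log2 scale (SE 0.39, unadjusted P = 0.162).

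Choroid plexus markers moved with the groups as well. All 9 had a log2 fold change above 0, 8 had an unadjusted P value under 0.05, 0 were called by edgeR and 7 by DESeq2. They summed to 15.1 to 81.8 CPM in the control and 113 to 376 CPM in the morphine libraries, in the morphine libraries mostly of Ttr, and Kcnj13 had no count in control replicate 1. When their score was added to the model, Nrgn differed by 0.49 on the log2 scale (SE 0.38, unadjusted P = 0.231). The score did not overlap between the groups (up to 1.63 in control and from 1.88 in morphine), so choroid plexus content and condition cannot be told apart in these 8 libraries. Of 5 markers of dentate granule cells, 4 had an unadjusted P value under 0.05 and a log2 fold change above 0 (Dsp, Lct, Tdo2 and Npnt). Prox1, the most abundant of the 5, was at -0.22 (SE 0.13, unadjusted P = 0.115). edgeR called 0 of the 5 and DESeq2 called Tdo2. Their summed level, most of it Prox1 (111 to 161 CPM), overlapped, at 120 to 176 CPM in the control and 151 to 190 CPM in the morphine libraries. Their score ran from 0.80 to 3.13 in the control and from 3.31 to 4.12 in the morphine libraries. The score did not overlap, so it cannot be told apart from condition either.

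Within the CaMKII family, Camk2a and Camk2b were the most abundant per kilobase, and Camk2a had the widest difference between the groups. Camk2a (chromosome 18, 60925307 to 60988152, plus strand) encodes the alpha subunit. It was at 918, 768, 783 and 992 CPM in control replicates 1, 2, 5 and 6 and at 846, 1504, 1615 and 1284 CPM in morphine replicates 3, 4, 7 and 8. Morphine replicates 4, 7 and 8 were above every control library, and replicate 3 was within the control range. The log2 fold change was 0.60 (SE 0.18), a fold of 1.52 (95% interval 1.15 to 2.00), with an adjusted P value of 0.217 from edgeR and 0.0531 from DESeq2. The exact permutation P was 0.0857. Without morphine replicate 3, edgeR called Camk2a (log2 fold change 0.76, adjusted P = 0.0476), as it then did 0.408% of the genes. With the telencephalic score in the model the difference was 0.15 (SE 0.27), with the choroid plexus score it was 0.46 (SE 0.32), and with the striatal score it was 0.56 (SE 0.18, unadjusted P = 0.00872). Without morphine replicates 4 and 7, the libraries highest in striatal markers and also in Camk2a, it was 0.28 (unadjusted P = 0.162).

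Camk2b (chromosome 11, 5969629 to 6066357, minus strand) encodes the beta subunit, which binds actin. It was at 1091, 953, 1076 and 1022 CPM in control replicates 1, 2, 5 and 6 and at 809, 1241, 1251 and 957 CPM in morphine replicates 3, 4, 7 and 8. Morphine replicates 4 and 7 were above the narrow control range, replicate 3 was below it and replicate 8 was within it. The log2 fold change was 0.040 (SE 0.14, adjusted P = 0.934), a fold between 0.826 and 1.28 by the 95% interval, and its sign turned when morphine replicate 4 or 7 was left out.

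Camk2d (chromosome 3, 126595487 to 126846326, plus strand) encodes the delta subunit, the main one of heart muscle. It was at 337, 268, 333 and 325 CPM in control replicates 1, 2, 5 and 6 and at 307, 234, 261 and 217 CPM in morphine replicates 3, 4, 7 and 8. Morphine replicates 4, 7 and 8 were below the lowest control, replicate 2, and the groups overlapped through morphine replicate 3. The difference was -0.31 on the log2 scale (SE 0.12, unadjusted P = 0.0296, adjusted P = 0.345), with an exact permutation P of 0.0571. It was -0.17 (SE 0.18) with the telencephalic, -0.084 (SE 0.20) with the choroid plexus and -0.31 (SE 0.13, unadjusted P = 0.0388) with the striatal score in the model.

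Camk2g (chromosome 14, 20734873 to 20794157, minus strand) encodes the gamma subunit, known as a carrier of calmodulin to the nucleus. It was at 219, 233, 268 and 229 CPM in control replicates 1, 2, 5 and 6 and at 215, 211, 216 and 274 CPM in morphine replicates 3, 4, 7 and 8. Morphine replicate 8 was the highest of the 8 libraries and the other morphine libraries were below every control. The groups differed by a log2 fold change of -0.049 (SE 0.11, adjusted P = 0.887), with a 95% interval of the fold from 0.815 to 1.15.

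The ratio of Camk2a to Camk2b counts within a library needs no normalization between libraries. It was 0.842, 0.806, 0.728 and 0.971 in control replicates 1, 2, 5 and 6 and 1.05, 1.21, 1.29 and 1.34 in morphine replicates 3, 4, 7 and 8. The groups did not overlap, with every control below 1 and every morphine library above it. Of the 36 ratios among the 9 genes 8 did not overlap between the groups, 7 of them with Nrgn in the ratio and this one without. Among all 43912506 ratios between 2 genes with a mean of at least 10 CPM, 8.26% did not overlap in either direction. A single such ratio without Nrgn is thus no more than this background. The ratio was singled out after its values were seen and carries no test. Divided by the length of the counted transcript (4970 bases for Camk2a, 4004 for Camk2b, 4169 for Camk2d and 3703 for Camk2g), Camk2a made up 30.4 ± 2.64% (SD, n = 4) of the summed CaMKII level per kilobase in the control and 40.0 ± 4.15% (SD, n = 4) in the morphine libraries. For Camk2b these shares were 45.2 ± 1.55% (SD, n = 4) and 40.6 ± 1.86% (SD, n = 4). The shares add up to the whole, so a lower share need not be a lower level. The mean of Camk2b was 1035 CPM in the control and 1064 CPM in the morphine libraries. The Camk2d share was 12.4 to 13.8% in the control libraries, 14.6% in morphine replicate 3 and 7.72 to 8.36% in the other morphine libraries. The CPM of the 4 CaMKII genes summed to 2222 to 2567 in the control and 2177 to 3343 in the morphine libraries, so the sum overlapped.

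**Figure D2:**
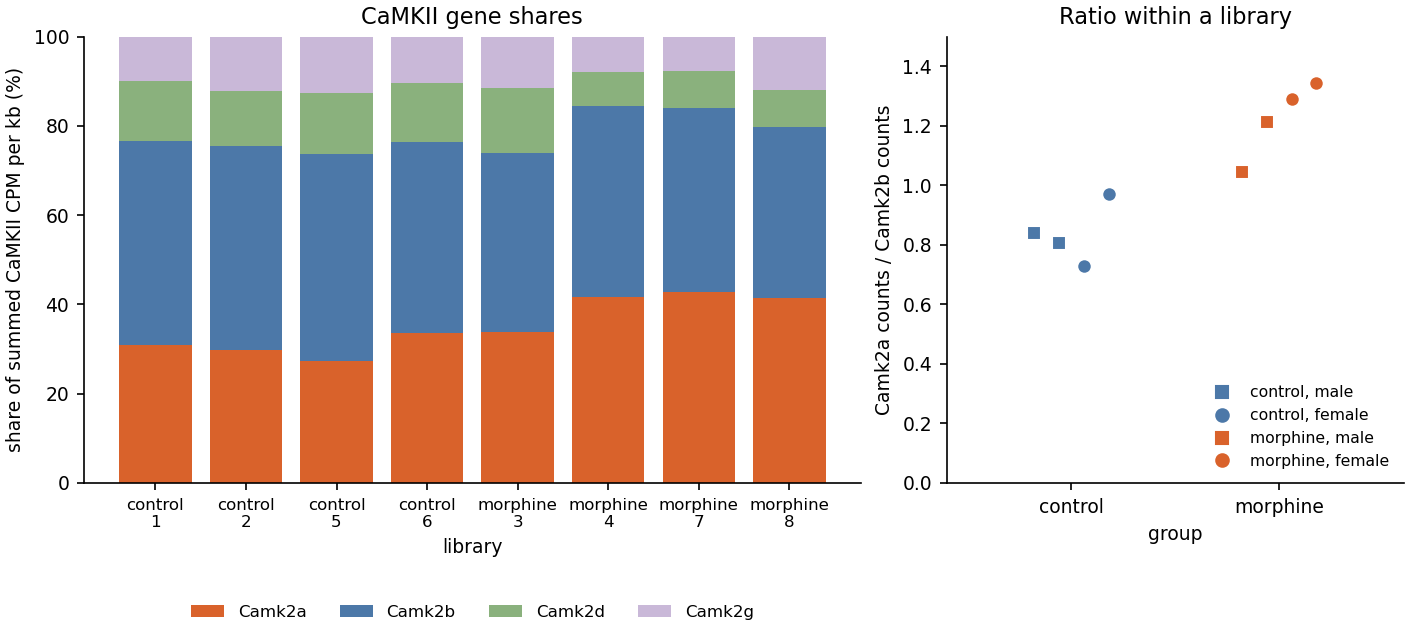
Left, share (%) of each CaMKII gene in the summed CaMKII CPM per kilobase of each library. Right, ratio of Camk2a to Camk2b counts in each library (blue control, orange morphine, squares male, circles female). The ratio is 0.728 to 0.971 in the control and 1.05 to 1.34 in the morphine libraries.

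The kinases of the CaMKK cascade had smaller differences than Nrgn and Camk2a. Camkk1 (chromosome 11, 73016043 to 73042073, plus strand) encodes an upstream kinase. Camkk1 was at 115, 111, 121 and 89.4 CPM in control replicates 1, 2, 5 and 6 and at 110, 111, 126 and 131 CPM in morphine replicates 3, 4, 7 and 8. The groups overlapped, with control replicate 6 lowest, and the log2 fold change was 0.13 (SE 0.11, adjusted P = 0.677). Without control replicate 6 it was 0.027. Camkk2 (chromosome 5, 122718380 to 122779522, minus strand) encodes the other upstream kinase, which also phosphorylates AMPK. It was at 190, 235, 239 and 244 CPM in control replicates 1, 2, 5 and 6 and at 238, 359, 307 and 211 CPM in morphine replicates 3, 4, 7 and 8. Morphine replicates 4 and 7 were the highest of all libraries and the other morphine libraries lay within the control range. edgeR gave a log2 fold change of 0.30 (SE 0.16, adjusted P = 0.505), and without morphine replicate 4 it was 0.15. Without morphine replicates 4 and 7 it was -0.037, and it was 0.026 (SE 0.25) with the telencephalic, 0.14 (SE 0.28) with the choroid plexus and 0.24 (SE 0.11) with the striatal score in the model.

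Camk1 (chromosome 6, 113334124 to 113343922, minus strand) encodes CaMKI, a cytosolic target of the upstream kinases. It was the member with the fewest counts, at 75.4, 72.5, 64.7 and 71.5 CPM in control replicates 1, 2, 5 and 6 and at 64.8, 46.2, 56.0 and 57.4 CPM in morphine replicates 3, 4, 7 and 8. Every morphine library was below the control mean of 71.0 ± 4.53 CPM (SD, n = 4), and the groups overlapped only because morphine replicate 3 just exceeded control replicate 5. The log2 fold change was -0.34 (SE 0.11), with an unadjusted P value of 0.0100, an adjusted P value of 0.243 from edgeR and 0.109 from DESeq2, and an exact permutation P of 0.0571. Camk1 differed by -0.22 (SE 0.16, unadjusted P = 0.208) with the telencephalic score in the model, by -0.23 (SE 0.19, unadjusted P = 0.248) with that of choroid plexus and by -0.33 (SE 0.10, unadjusted P = 0.00888) with that of striatum. An exon of Camk1 overlaps Ogg1, which runs on the opposite strand. The counting is not stated to use the strand, so reads of the pair cannot be told apart there.

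Camk4 (chromosome 18, 32934941 to 33195767, plus strand) encodes the nuclear kinase CaMKIV. It was at 302, 262, 387 and 276 CPM in control replicates 1, 2, 5 and 6 and at 218, 543, 437 and 214 CPM in morphine replicates 3, 4, 7 and 8. The morphine group split, with replicates 4 and 7 above every control library and replicates 3 and 8 below every one. The log2 fold change was 0.20 (SE 0.28, adjusted P = 0.802), and the coefficient of variation was 46.5% in the morphine group against 18.3% in the control group. An antisense gene, 2310026I22Rik, overlaps Camk4 and has no row in the table, so its reads cannot be told apart without strand.

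The same pair of morphine libraries was high in striatal markers. Ppp1r1b, a regulator of protein phosphatase in striatal neurons, was at 99.5, 170, 130 and 73.5 CPM in control replicates 1, 2, 5 and 6 and at 51.5, 435, 374 and 28.3 CPM in morphine replicates 3, 4, 7 and 8. Like Camk4, it was highest in morphine replicates 4 and 7 and lowest in 3 and 8. All 6 striatal markers had a log2 fold change above 0, 0 were called by edgeR or DESeq2 and 0 had an unadjusted P value under 0.05, and they summed to 129 to 335 CPM in the control and 60.5 to 876 CPM in the morphine libraries, with none at 0 counts. When their score was added to the model, Camk4 differed by 0.031 on the log2 scale and the SE was 0.15 in place of 0.28. Without morphine replicates 4 and 7, which were highest in Camk4, its difference was -0.53. Leaving these libraries out set the direction of that value, so it carries no test. With the striatal score Nrgn differed by 1.41 (SE 0.29). Without replicates 4 and 7, Nrgn was still higher in both remaining morphine libraries, with a log2 fold change of 1.07 (unadjusted P = 0.00504, adjusted P = 0.265).

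**Figure D3:**
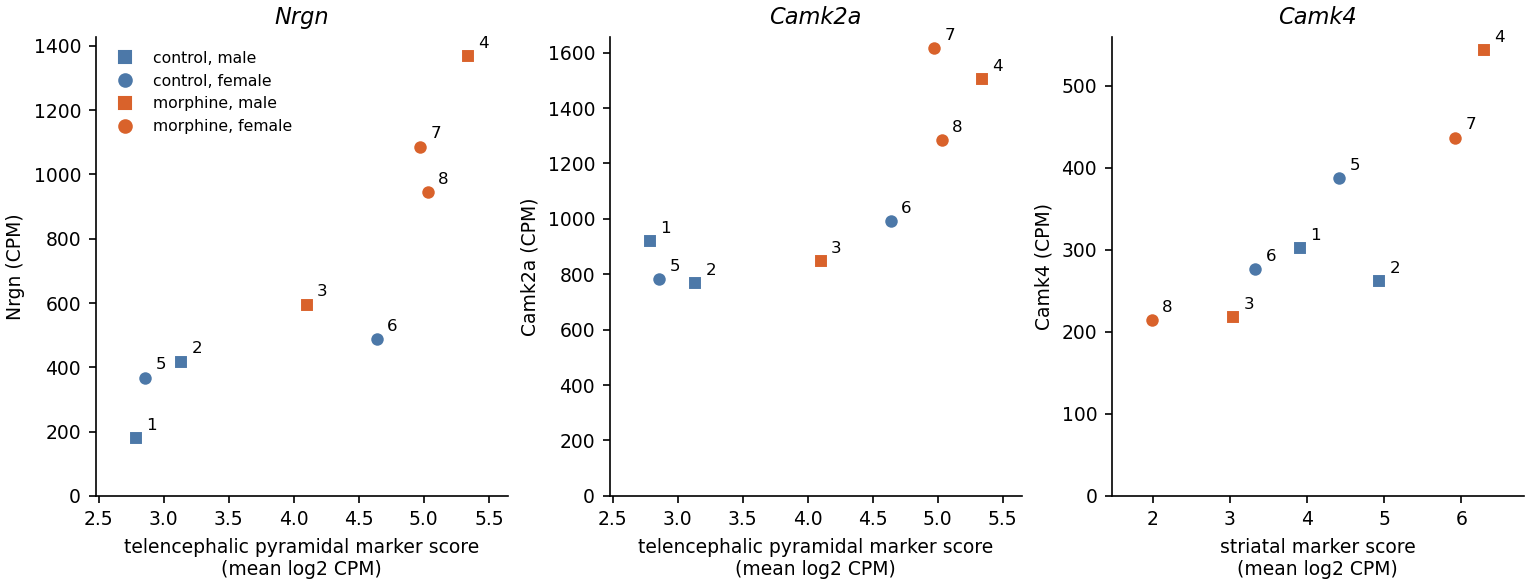
Level (CPM) of Nrgn, Camk2a and Camk4 against a marker score (mean log2 CPM of the listed markers) in each of the 8 libraries; numbers are replicates, blue is control, orange morphine, squares male and circles female. Morphine replicates 4 and 7 have the highest striatal scores and the highest Camk4 (543 and 437 CPM).

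**Figure D4:**
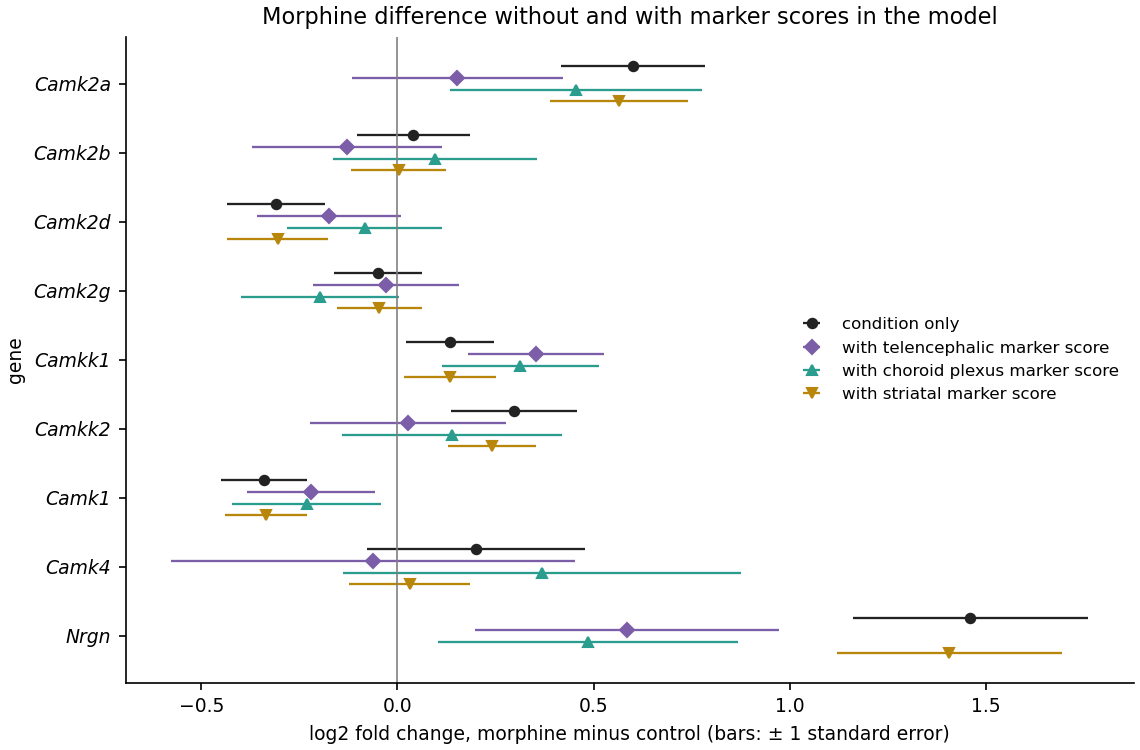
Log2 fold change of each gene, morphine minus control, with bars of 1 standard error, from edgeR with condition only and with 1 marker score added. Nrgn stands at 1.46 with condition only and at 0.58 and 0.49 with the telencephalic and choroid plexus scores, and Camk4 at 0.20 with condition only and 0.031 with the striatal score.

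The plot of differences by model shows that the telencephalic and choroid plexus scores also widened the errors, for Camk2a from 0.18 to 0.27 and 0.32. The difference of Camkk1 was larger with either score, at 0.35 (SE 0.17) with the telencephalic and 0.31 (SE 0.20) with the choroid plexus score. Oligodendrocyte markers had a log2 fold change above 0 in 6 of 6 genes, with 0 called by edgeR or DESeq2 and 0 unadjusted P values under 0.05, and summed to 82.7 to 995 CPM in the control and 473 to 1338 CPM in the morphine libraries. All 8 markers of midline thalamus had log2 fold changes below 0, of which 0 were called by edgeR or DESeq2 and 3 had an unadjusted P value under 0.05. Their sum was 2276 to 3061 CPM in the control and 1517 to 2937 CPM in the morphine libraries, lowest in morphine replicate 4. Among the 8 is Oprm1, the gene from which Cre was made, named here after its values were seen. It was at 32.3, 29.4, 16.8 and 22.7 CPM in control replicates 1, 2, 5 and 6 and at 15.9, 14.0, 17.6 and 18.4 CPM in morphine replicates 3, 4, 7 and 8. The groups overlapped through control replicate 5, and Oprm1 differed by -0.62 on the log2 scale (SE 0.19, unadjusted P = 0.00649, adjusted P = 0.207 from edgeR and 0.0596 from DESeq2). Markers of medial habenula, ependyma, astrocytes, microglia and endothelium overlapped between the groups in summed level. The part of these other cells in the members' differences was not tested beyond the fits with a score.

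Levels of different genes were compared per kilobase of the counted transcript. In the control group the order was Camk2b (259 CPM per kilobase), Nrgn (250), Camk2a (174), Camk4 (113), Camk2d (75.8), Camk2g (64.0), Camk1 (47.5), Camkk2 (46.7) and Camkk1 (31.9). Neighbours whose control libraries overlapped, and so could not be ordered beyond their spread, were Camk2b and Nrgn, Nrgn and Camk2a, Camk2d and Camk2g, and Camk1 and Camkk2. In the morphine group Nrgn came first at 688 ± 222 CPM per kilobase (SD, n = 4), with Camk2b at 266 ± 54.5 (SD, n = 4) and Camk2a at 264 ± 68.4 (SD, n = 4). The length behind each value is uncertain. The transcripts of Camk2b, Camk2d, Camk2g and Camkk2 differ in length, but each had at least 99.6% of the counts of the one used. Reads thus appear to have been counted on every transcript they could come from, though the counting tool is not given. For Camk2a the shorter transcript held 77.2% to 79.4% of the counts of the longer one.

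The sexes were compared in a model that also held condition. Of the 9 members 0 were called between the sexes by edgeR (0.00528% of all genes) and 0 by DESeq2, and 0 had an unadjusted P value under 0.05 (3.1% of all genes). The widest difference was that of Nrgn, with means of 722 CPM in the female and 640 CPM in the male libraries (female minus male log2 fold change 0.28, SE 0.28, unadjusted P = 0.327). The female libraries include control replicate 5 with its Y-linked reads, and without it the log2 difference of Nrgn was 0.31. For Camk2a the log2 difference was 0.19 (SE 0.18). The interaction of sex and condition had an unadjusted P value under 0.05 for 0 of the 9 members (1.72% of all genes), and 0 were called by edgeR or DESeq2. With 2 libraries per sex and group its standard errors were wide, from 0.24 for Camkk1 to 0.56 for Nrgn on the log2 scale, so differences of that size between the sexes were not detectable here. Without control replicate 5 the interaction of Camkk1 was 0.56 in place of 0.32, and 0 members were called.

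The other genes of the pathway were taken from 7 lists with 44 genes, all of them measured. edgeR called 1 of them higher and 0 lower (0.195% of all genes were called), 10 had an unadjusted P value under 0.05 (6 higher and 4 lower, against 12.1% of all genes in either direction), and the median log2 fold change was 0.042. The called gene was Adcy1, a calmodulin-stimulated adenylyl cyclase, at 314, 334, 368 and 406 CPM in control replicates 1, 2, 5 and 6 and 528, 579, 601 and 572 CPM in morphine replicates 3, 4, 7 and 8. It rose in all 4 morphine libraries, by 0.68 on the log2 scale (SE 0.10, adjusted P = 0.0416). The call held in 11 of 22 alternatives and in 2 of the 8 that left out 1 library, without control replicate 6 or morphine replicate 3. With the telencephalic score in the edgeR model Adcy1 differed by 0.47 on the log2 scale (SE 0.15, unadjusted P = 0.00961, adjusted P = 0.679). With the choroid plexus score it differed by 0.46 (SE 0.17, unadjusted P = 0.0203). Adcy1 was called in neither fit, and these fits called 1 and 0 of all genes. DESeq2 called 5 of the 44 (2.65% of all genes), which were Adcy1, Ppp3ca, Ppp3r1 and Gria1 on the higher side and Pnck on the lower side. Ppp3r1 is named for that call, after its values were seen.

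Calm2 and Calm3, which encode calmodulin, had 0 calls by edgeR or DESeq2 and 0 unadjusted P values under 0.05. Calm2 was at 1345 to 1393 CPM in the control and 1387 to 1744 CPM in the morphine libraries, which overlapped, with a log2 fold change of 0.14 (SE 0.11, adjusted P = 0.630). Calm3 was at 2292 to 2663 CPM in the control and 2377 to 2949 CPM in the morphine libraries, with a log2 fold change of 0.054 (SE 0.11, adjusted P = 0.877). Among the 3 other calmodulin buffers, Gap43 of growing axons, which shares the calmodulin-binding IQ motif with neurogranin, was lowest at -0.31 (SE 0.12, unadjusted P = 0.0237, adjusted P = 0.321) and Pcp4 highest at 0.20 (SE 0.20). Gap43 was called by neither edgeR nor DESeq2.

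Of 7 other kinases of the family 0 were called by edgeR. Pnck, a CaMKI-like kinase, was the lowest at -0.54 (SE 0.13, adjusted P = 0.121 from edgeR and 0.0116 from DESeq2), with 136, 119, 91.8 and 121 CPM in control replicates 1, 2, 5 and 6 and 86.1, 67.5, 83.1 and 85.5 CPM in morphine replicates 3, 4, 7 and 8. Every morphine library was below every control. The share of all genes with this pattern was not computed, so it is a description. Eef2k, the calmodulin-dependent kinase of elongation factor 2, was the highest at 0.23 (SE 0.12, adjusted P = 0.481). Of the 4 inhibitors and phosphatases of CaM kinases 0 were called by edgeR or DESeq2, from -0.23 for the phosphatase Ppm1f (SE 0.089, adjusted P = 0.336) to 0.24 for the CaMKII inhibitor Camk2n1 (SE 0.15, adjusted P = 0.589). Like Pnck, Ppm1f was lower in every morphine library (94.7 to 116 CPM) than in every control library (121 to 128 CPM).

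Calcineurin is the calmodulin-dependent phosphatase. Of its 6 listed genes 0 were called by edgeR and 2 were by DESeq2. Ppp3ca, its alpha catalytic subunit, was at 587, 557, 703 and 607 CPM in control replicates 1, 2, 5 and 6 and at 761, 1231, 1233 and 870 CPM in morphine replicates 3, 4, 7 and 8. All morphine libraries were above all controls, as they were for 3.34% of all genes. The log2 fold change was 0.74 (SE 0.16, adjusted P = 0.0962 from edgeR and 0.00256 from DESeq2). The highest were morphine replicates 4 and 7, which were also highest in striatal markers. Ppp3ca differed by 0.69 (SE 0.13) with the striatal, 0.54 (SE 0.28) with the telencephalic and 0.75 (SE 0.30) with the choroid plexus score in the model, and by 0.39 (SE 0.14, adjusted P = 0.367 from edgeR) without morphine replicates 4 and 7. The lowest of the list was the inhibitor Rcan2 at -0.067 (SE 0.12). Of 16 substrates of CaM kinases 0 were called by edgeR and 1 by DESeq2, and 3 had an unadjusted P value under 0.05, all higher. The highest was Gria1, an AMPA receptor subunit that CaMKII phosphorylates, at 0.71 (SE 0.17, adjusted P = 0.133 from edgeR and 0.00948 from DESeq2). Prkaa2, a catalytic subunit of AMPK, was the lowest at -0.26 (SE 0.12, adjusted P = 0.439). Among 6 other calmodulin-regulated enzymes the lowest was Nos1, the neuronal nitric oxide synthase, at -0.48 (SE 0.21, adjusted P = 0.385).

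**Figure D5:**
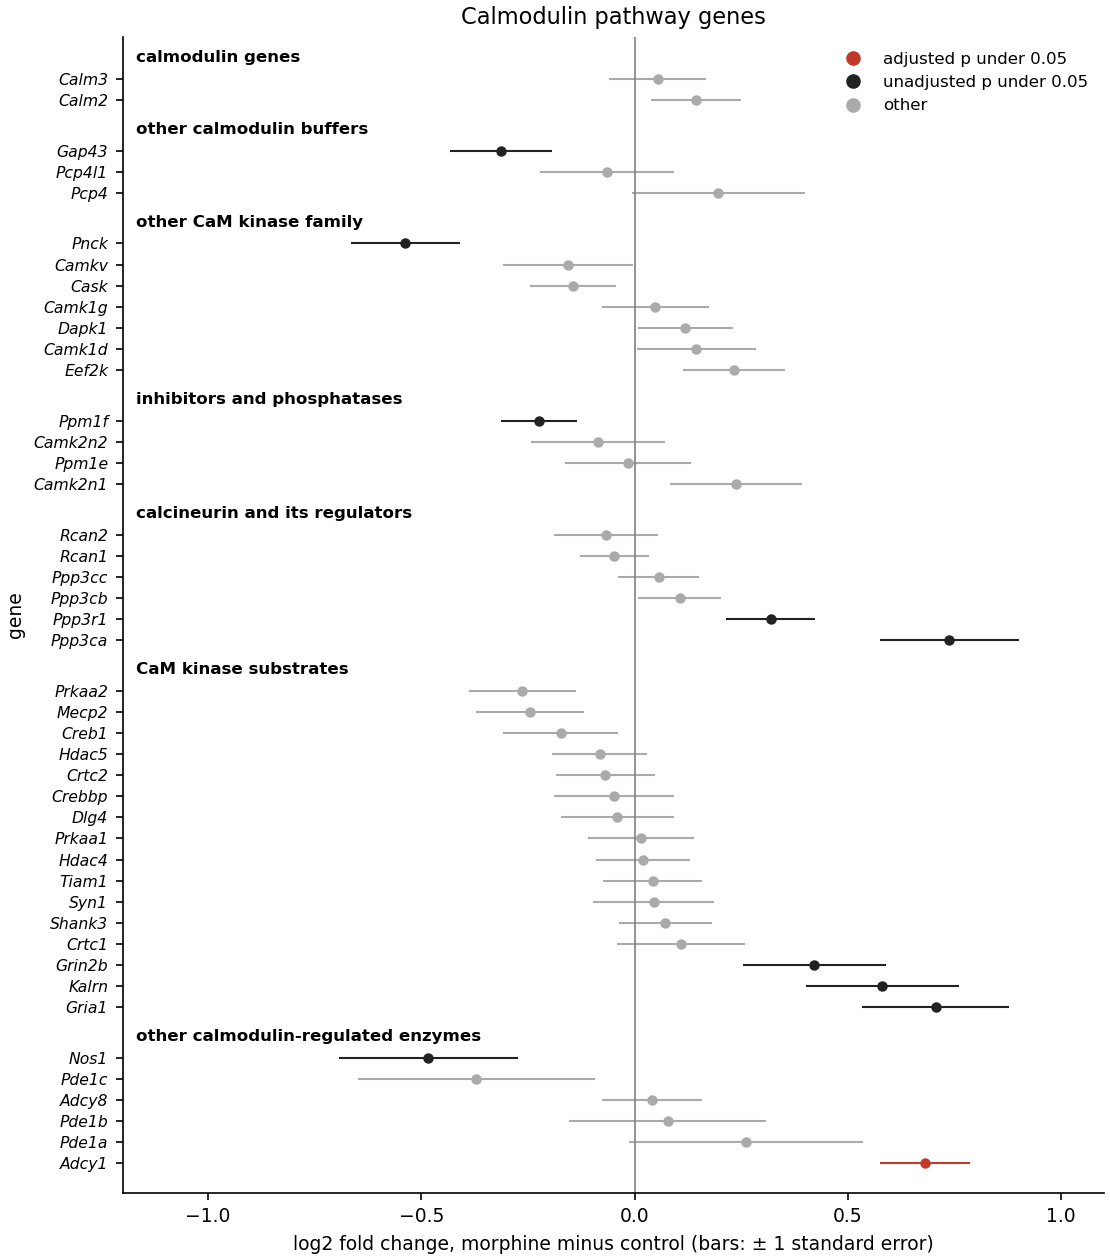
Log2 fold change, morphine minus control, of the 44 pathway genes in their lists, with bars of 1 standard error; red marks an adjusted P value under 0.05, black an unadjusted one, grey neither. Adcy1 at 0.68 is the single red point, and Calm3 and Calm2 lie at 0.054 and 0.14.

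For each member the genes with the most similar profile were sought among 9363 genes with a mean of at least 10 CPM, by Pearson's r of log2 CPM over the 8 libraries. The highest r is the largest of many, and the points share libraries and groups, so it is a description. Nrgn was closest to Gpm6b (r = 0.977) and Lrrc8b (0.975), and Camk2a to Bcl11a (0.985) and Kalrn (0.977). Camk2b was closest to Leng8 (0.961) and Mbd5 (0.959), Camk2d to Pou2f1 (0.988) and Bend4 (0.985), and Camk2g to Appl2 (0.907) and H1f0 (0.906). For Camkk1 the nearest were Mknk1 (0.963) and Dynlrb1 (0.933), for Camkk2 Arpp19 (0.973) and Nhp2 (0.963), for Camk1 Gdap1l1 (0.979) and A730017C20Rik (0.978), and for Camk4 Gprin3 (0.976) and Dach1 (0.975). Kalrn, which encodes a synaptic exchange factor and is also on the list of CaM kinase substrates, was at 302, 246, 284 and 373 CPM in control replicates 1, 2, 5 and 6 and at 312, 536, 534 and 421 CPM in morphine replicates 3, 4, 7 and 8. As with Camk2a, morphine replicates 4, 7 and 8 were above every control and replicate 3 was not. Gprin3 was highest in morphine replicate 4 (37.1 CPM), followed by control replicate 5 (30.1 CPM) and morphine replicate 7 (29.6 CPM), and Camk4 was also highest in these 3 libraries.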

How the data were processed

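Mouse TRAP-Seq was read from 8 libraries, grouped by the labels of the deposited samples. The authors deposited a table of raw read counts per RefSeq transcript and library, not normalized; the tool that made it is not given in the sources used here. Their methods name Salmon, tximport and DESeq2 on mm10 for their own analysis. The 24488 transcripts were reduced to 18939 genes by the transcript with the highest total. Total counts per library were 31151103 to 47582947, and counting error limits the precision of genes with few counts.

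The counts were normalized (TMM) and tested with edgeR 4.0.16 (R 4.3.3), glmQLFit and glmQLFTest, with condition in the model and Benjamini-Hochberg adjustment over all genes. DESeq2 1.42.0 and limma-voom (limma 3.58.1) were alternatives, as were other factors, filters, sex or marker scores in the model, and each library left out. Single genes had an exact two-sided permutation test on log2(CPM + 0.5). Marker scores are mean log2 CPM with a prior count of 2. The tests were tried on simulated data. P values measure the spread between pooled libraries.

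The members and all gene lists were chosen with earlier results of these data known. All 9 members are named. Of each pathway list the called genes and the genes with the highest and lowest log2 fold change are named, and for each member the 2 genes of most similar profile. Some listed genes are not reported here. Lamp5, Drd1 and Nwd2 were matched by an older symbol. Lengths are of GENCODE transcripts, coordinates of RefSeq on GRCm38.p6. Promoter sequences are from RefSeq.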

Additional observations from a re-analysis of the deposited data

Results flagged for a closer look

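Each member was screened in each group for a library far from the other 3, which makes 18 screens, of which chance alone would mark about 1 in 20. The Camk2g level of morphine replicate 8, at 274 CPM, was far above the other morphine libraries, at 211 to 216 CPM, with a gap of 0.91 of the range of the group. Without this library the log2 fold change of Camk2g was -0.15 in place of -0.049, without control replicate 5 it was -0.00029, and it was called in none of these fits. The Camkk2 level of control replicate 1, at 190 CPM, was far below the other control libraries, at 235 to 244 CPM, with a gap of 0.838 of the range. Without control replicate 1 the log2 fold change of Camkk2 was 0.21 in place of 0.30, and it was called with neither.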

How the results depend on the processing

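No paired analysis was possible because the groups share no replicate number. Between morphine and control, edgeR called 37 genes and 0 members. DESeq2 called 502 genes, of which 1 was a member (Nrgn), edgeR with sex in the model 110 with 1 member (Nrgn), and DESeq2 with sex 433 with 1 member (Nrgn). The number of genes was 14 with filterByExpr, 15 with at least 10 counts in every library, 23 with limma-voom, 22 with sums over transcripts, 1 with the telencephalic, 0 with the choroid plexus and 18 with the striatal score, and 0 without morphine replicates 4 and 7; each of these left 0 members called. Where edgeR called 0 genes, 632 (choroid plexus score), 2061 (without morphine replicates 4 and 7), 1696 (without morphine replicate 4) and 1664 (without morphine replicate 8) had an unadjusted P value under 0.05. Leaving out 1 library at a time gave 0 to 77 genes (0 without morphine replicate 4 or 8, 1 without control replicate 1, 77 without control replicate 6 or morphine replicate 3) and 0 to 1 members (Camk2a, without morphine replicate 3). Between the sexes 1 gene was called, 5 without control replicate 5 and 21 by DESeq2. The interaction was called in 0 genes by edgeR and in 4 by DESeq2, and in edgeR P was under 0.05 before adjustment for 325 genes.

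Of 198 log2 fold changes of members under an alternative, 185 kept their direction and their side of the threshold, 4 passed it (Nrgn in 3 fits and Camk2a in 1) and 9 changed sign. With the telencephalic score these were Camk2b (-0.13) and Camk4 (-0.062). Without morphine replicate 4 they were Camk2b (-0.042) and Camk4 (-0.085), and without morphine replicate 7 Camk2b (-0.065), in a range over the libraries left out of -0.065 to 0.15 for Camk2b and -0.085 to 0.38 for Camk4. Without both they were Camk2b (-0.25), Camk2g (0.021), Camkk2 (-0.037) and Camk4 (-0.53). Without control replicate 5 the sex difference changed sign for Camkk1 (-0.011) and Camk4 (-0.16). The cause was not tested. None of these members was called in either fit. The striatal score, the pair of libraries left out and DESeq2 with sex were chosen after seeing the data. After adjustment over all genes, no member other than Nrgn was called in a fit of all 8 libraries.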
